A study of Rattus norvegicus with 15 samples.

Results

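The erythropoietin receptor axis was followed in whole rat retinas as 8 genes chosen by symbol: *Epo*, *Epor*, *Csf2rb*, *Jak2*, *Stat5a*, *Stat5b*, *Cish* and *Socs2*. All 8 were found once among the 20375 genes listed, and 7 of them, all but *Epo*, passed the filter on low values that 15424 genes passed. The genes were chosen by their role, and each is described here over 5 groups of 3 libraries.

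Erythropoietin is a secreted hormone that binds a receptor, EPOR, held at the cell surface with the kinase JAK2. Bound receptor switches JAK2 on, JAK2 phosphorylates the receptor tail, STAT5A and STAT5B dock there, and phosphorylated STAT5 enters the nucleus and raises the transcription of targets that include the feedback inhibitors CISH and SOCS2. Outside the blood lineage EPOR is thought to work also together with CSF2RB, the beta chain shared by the receptors for GM-CSF, interleukin-3 and interleukin-5, and in the retina erythropoietin is studied as a survival factor for photoreceptors and ganglion cells. Phosphorylation of these proteins is not seen in RNA, so only transcript levels are given below.

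The retinas came from wild-type Sprague-Dawley rats labelled as week 12 after birth and as day 31 after transplantation. The NT group was healthy and had no treatment, whereas the sham, MSC, MSCEPO and DPSC groups all received sodium iodate at 40 mg/kg, a toxin of the retinal pigment epithelium and photoreceptors, with vehicle in the eye in the sham group and cells in the other 3. MSC are human mesenchymal stem cells from Wharton's jelly, MSCEPO are such cells carrying a lentiviral human *EPO* gene with GFP, and the DPSC group is named here as its labels name it. The rats with xenografts were given dexamethasone and then cyclosporin, so in each comparison of a cell group with sham the cells and these drugs cannot be told apart. Against NT, the cell groups differed at once in sodium iodate, the injection into the eye, the cells and these drugs. The parts of these cannot be told apart, nor can those of sodium iodate and the injection in sham against NT. The reads were assigned to rat transcripts, so the human *EPO* transcript of the injected cells was not among the genes measured. The labels do not say that the libraries of a group came from different rats, and the p-values measure the spread between these libraries.

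The values are the authors' rlog values, a log2 scale on which library size has been allowed for and each gene is pulled toward its own average, so that a difference of 1 is a doubling and small or variable differences are understated. A gene "passed the test" when its adjusted p from limma, corrected over all 15424 genes tested, was under 0.05. The rod photoreceptor list (rhodopsin, *Gnat1*, *Sag* and others) was present in all libraries, and its mean level against NT was −0.86 to −0.67 in sham, −1.48 to −1.25 in MSC, −1.76 to −1.32 in MSCEPO and −1.54 to −0.75 in DPSC. Within their groups MSC replicate 1 and MSCEPO replicate 3 lay farthest from the other libraries, at mean distances of 73.3 and 91.0 over all tested genes. The other libraries of the cell groups lay at 51.7 to 68.9 and those of NT at 29.9 to 33.6, so MSC replicate 1 stood apart only a little. Both are called the libraries that stand apart below, and values without them are given beside the differences they move most. In whole tissue, fewer cells of a type and less RNA per cell cannot be told apart.

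The promoter windows of 6 of the 8 genes were found in RefSeq (GRCr8 assembly), each with 250 bases before and 50 after the start of the gene. The *Cish* window is shown because it held the STAT5 consensus letters TTCNNNGAA more often than almost any other, and the *Epor* window because it held the letters of an erythroid GATA motif. Capitals mark the matches, TTCNNNGAA in *Cish* and GATAA, read on the opposite strand as TTATC, in *Epor*. Both strands were searched, and the motifs do not overlap each other.
Cish, GRCr8 chr8:116850719-116851018, plus strand: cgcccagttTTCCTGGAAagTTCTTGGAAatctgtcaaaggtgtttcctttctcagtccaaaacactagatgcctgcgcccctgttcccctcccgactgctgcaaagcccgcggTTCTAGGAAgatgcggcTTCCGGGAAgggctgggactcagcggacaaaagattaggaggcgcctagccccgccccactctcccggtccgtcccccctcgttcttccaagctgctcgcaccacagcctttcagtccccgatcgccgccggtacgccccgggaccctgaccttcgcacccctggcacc
Epor, GRCr8 chr8:28770273-28770572, minus strand: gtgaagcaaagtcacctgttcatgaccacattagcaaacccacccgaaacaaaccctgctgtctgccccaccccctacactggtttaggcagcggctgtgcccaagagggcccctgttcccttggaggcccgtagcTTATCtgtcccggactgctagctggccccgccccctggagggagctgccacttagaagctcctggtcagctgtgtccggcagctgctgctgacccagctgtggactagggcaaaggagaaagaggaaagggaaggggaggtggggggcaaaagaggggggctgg
In *Cish* the 4 matches began at positions −241, −230, −136 and −119 from the start. TTCNNNGAA was present in 8.87% of 33469 rat promoter windows and 4 or more copies in 2 of them (0.00598%), while the windows of *Epo*, *Epor*, *Jak2*, *Stat5a* and *Stat5b* held 0. GATAA was present in 26.5% of windows, with 1 match in *Epor*, at positions −114 to −110, and 1 in *Epo*. These matches are descriptions of the letters and not of binding.

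*Epo*, the ligand, was at or near the floor in all 15 rat retinas. Its rlog values were 0.63, 0.57 and 0.57 in NT, 0.59, 0.57 and 0.57 in sham, and 0.64, 0.59 and 0.61 in MSC. They were 0.73, 0.64 and 0.57 in MSCEPO and 0.57, 0.63 and 0.57 in DPSC. The groups overlapped, 7 of the 15 libraries lay within 0.01 of the lowest value, and 14.9% of the listed genes had a lower mean. *Epo* was therefore not tested with the others. In a fit of all 20375 genes its adjusted p from limma was 0.347 for MSCEPO against NT, with a difference of 0.05, and 0.671 for MSCEPO against sham, with a difference of 0.07. At these values a change of rat *Epo* was not detectable.

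*Epor*, the receptor that binds erythropoietin, was lower in every retina that had received sodium iodate. The rlog values were 4.07, 3.87 and 3.97 in NT, 3.75, 3.77 and 3.72 in sham, and 3.76, 3.70 and 3.68 in MSC. They were 3.58, 3.66 and 3.81 in MSCEPO and 3.78, 3.63 and 3.72 in DPSC. All 12 libraries from treated eyes lay below all 3 NT libraries, and the 4 treated groups overlapped one another. The order of the means was NT (3.97 ± 0.10, SD, n = 3), sham (3.75 ± 0.03), MSC (3.71 ± 0.05), DPSC (3.71 ± 0.07) and MSCEPO (3.68 ± 0.12), with only the step from NT to sham larger than the spread of the libraries on both sides. *Epor* fell by 0.26 on the log2 scale in MSC (95% confidence interval −0.43 to −0.09, adjusted p = 0.0426 by limma) and by 0.29 in MSCEPO (−0.46 to −0.12, adjusted p = 0.0349). The differences of −0.22 in sham (adjusted p = 0.256) and −0.26 in DPSC (adjusted p = 0.108) did not pass. These are differences of under 0.3 in a gene near the filter at 3.32, and the 4 comparisons share the NT libraries. The call in MSC was lost without NT replicate 1 or 3 or without any 1 of the MSC replicates (adjusted p 0.0585 to 0.16), and the call in MSCEPO without NT replicate 1 or 3 or MSCEPO replicate 1 or 2 (0.0948 to 0.137). Both calls were also lost in a fit of the 2 groups compared (adjusted p = 0.0757 and 0.151), in a fit of 12 libraries without DPSC (0.0598 and 0.0521) and with no variance trend (0.0606 and 0.0508). That in MSC was lost with no filter on low values (0.0518), and that in MSCEPO with median centring (0.0567).

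*Csf2rb*, the shared beta chain, varied most among the 8 genes. The rlog values were 5.27, 5.13 and 4.96 in NT, 6.03, 6.23 and 5.76 in sham, and 9.49, 7.62 and 6.998 in MSC. They were 7.32, 7.12 and 5.63 in MSCEPO and 5.82, 7.16 and 5.47 in DPSC. All 12 libraries from treated eyes lay above the 3 NT libraries, MSC lay above sham with no overlap, and MSCEPO overlapped both sham and MSC. Its span over the 15 libraries was 4.53, larger than that of 98.9% of the tested genes. The means rose in the order NT (5.12 ± 0.15, SD, n = 3), sham (6.01 ± 0.24), DPSC (6.15 ± 0.89), MSCEPO (6.69 ± 0.92) and MSC (8.04 ± 1.30). Sham and DPSC, DPSC and MSCEPO, and MSCEPO and MSC overlapped as neighbours in that order.

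*Csf2rb* rose in MSC against NT by 2.91 ± 0.60 (standard error), or 7.54-fold on the rlog scale, with an adjusted p of 0.00684 by limma. In MSCEPO it was 1.57 above NT (95% confidence interval 0.26 to 2.88, adjusted p = 0.115). Without MSCEPO replicate 3, the one low library, that difference was 2.10 and passed (adjusted p = 0.033). MSC was 2.03 above sham (0.72 to 3.33, adjusted p = 0.16), a difference of 2.55 without MSC replicate 3 (adjusted p = 0.0396) and of 1.30 without MSC replicate 1 (adjusted p = 0.513). MSCEPO was 1.35 below MSC in the point estimate, with an interval from −2.65 to −0.04 and an adjusted p of 0.754. That difference was −0.62 without MSC replicate 1 and −0.087 without both libraries that stand apart.

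*Csf2rb* tracked the leukocyte markers in each library. The 11 tested genes of a leukocyte list (*Ptprc*, *Coro1a*, *Cd53* and others) had a mean level above NT of 0.59 to 1.11 in sham, 1.74 to 3.95 in MSC, 1.06 to 2.34 in MSCEPO and 0.61 to 2.03 in DPSC. *Csf2rb* minus this list, relative to NT, stayed between −0.55 and 0.43 over all 15 libraries, with the lowest value in MSCEPO replicate 3 and the highest in MSC replicate 1. All 11 genes of the list passed in MSC against NT and 6 in MSCEPO against NT, with medians of 2.56 and 1.53. There 17.4% and 11.6% of all tested genes passed. T and NK cell markers were 0.88 to 3.17 above NT in MSC and 0.43 to 1.23 in MSCEPO, and markers of myeloid cells and microglia 1.66 to 3.06 and 1.54 to 2.23. Of the granulocyte list *Csf3r* alone was tested, and its defining genes *Mpo* and *S100a8* were under the filter. The part of these cells in the level of *Csf2rb* was not tested. The genes nearest to *Csf2rb* over the 15 libraries were *Wdfy4*, *Ctse* and *Arhgap30*, with root mean square differences of 0.19, 0.25 and 0.26 after the NT mean was subtracted, and *Arhgap30* belongs to the leukocyte list.

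**Figure D1:**
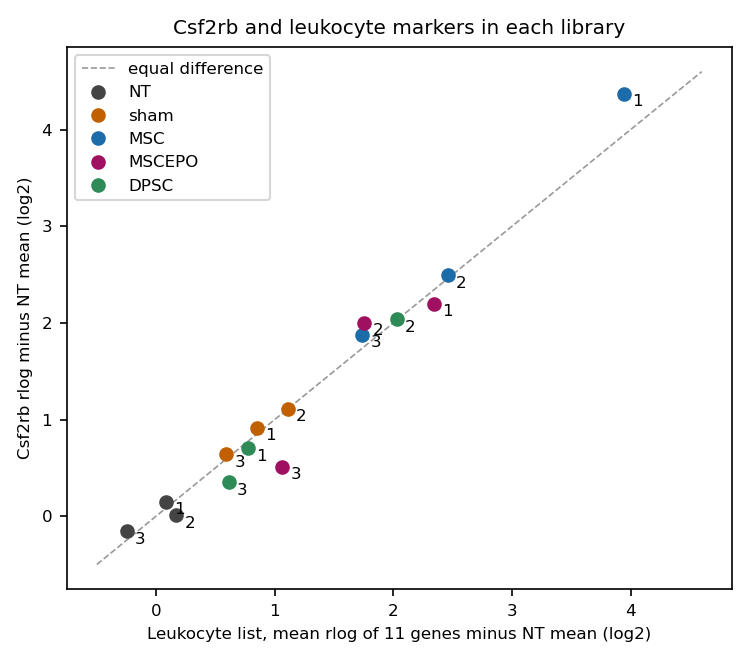
Each point is 1 of the 15 libraries, numbered by replicate, with the mean rlog of 11 leukocyte markers minus the NT mean on the x axis and *Csf2rb* rlog minus its NT mean on the y axis (both log2). The points lie near the dashed line of equal difference, from the NT libraries at the lower left to MSC replicate 1 at the upper right, and MSCEPO replicate 3 lies below the line by 0.55.

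*Jak2*, the kinase bound to the receptor, was higher in the MSC group than in NT. The rlog values were 10.04, 9.98 and 10.02 in NT, 10.18, 9.88 and 10.18 in sham, and 11.05, 10.58 and 10.34 in MSC. They were 10.59, 10.28 and 10.08 in MSCEPO and 10.15, 10.51 and 10.13 in DPSC. The 3 MSC libraries lay above every NT and sham library, MSCEPO and DPSC lay above NT, and sham overlapped NT. The means rose from NT (10.01 ± 0.03, SD, n = 3) over sham (10.08 ± 0.17), DPSC (10.26 ± 0.21) and MSCEPO (10.32 ± 0.26) to MSC (10.65 ± 0.36), and each pair of neighbours overlapped.

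In MSC *Jak2* was 0.64 ± 0.18 (standard error) above NT, a 1.56-fold rise with an adjusted p of 0.0272 by limma. The call was lost without any 1 of the NT replicates or without MSC replicate 1 or 2 (adjusted p 0.0549 to 0.102). Against sham the difference in MSC was 0.58 (95% confidence interval 0.19 to 0.96, adjusted p = 0.17), which became 0.73 without MSC replicate 3 (adjusted p = 0.0415) and 0.38 without MSC replicate 1 (adjusted p = 0.541). MSCEPO was 0.30 above NT (−0.08 to 0.69, adjusted p = 0.297) and 0.34 below MSC (−0.72 to 0.05, adjusted p = 0.754), and the latter was −0.023 without both libraries that stand apart. The genes nearest to *Jak2* by pattern were *Gna13*, *Nfe2l2* and *Fam49a*, at root mean square differences of 0.08, 0.09 and 0.09.

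*Stat5a* and *Stat5b*, the transcription factors of the axis, had different patterns. *Stat5a* had rlog values of 7.82, 7.90 and 7.50 in NT, 7.97, 8.07 and 8.07 in sham, and 8.98, 8.20 and 7.99 in MSC. It had 8.31, 8.26 and 7.96 in MSCEPO and 7.98, 8.27 and 7.72 in DPSC. All sham, MSC and MSCEPO libraries lay above NT, and these 3 groups overlapped one another. The difference from NT was 0.30 in sham (adjusted p = 0.691 by limma), 0.65 in MSC (95% confidence interval 0.16 to 1.14, adjusted p = 0.0657) and 0.44 in MSCEPO (−0.05 to 0.93, adjusted p = 0.232), and none of the 3 passed. Without MSC replicate 3 the difference in MSC was 0.85 and passed (adjusted p = 0.0226), while without MSC replicate 1 it was 0.36 (adjusted p = 0.226).

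*Stat5b* had rlog values of 9.85, 10.39 and 9.89 in NT, 10.01, 9.70 and 10.12 in sham, and 9.96, 9.77 and 10.01 in MSC. It had 9.65, 9.92 and 8.95 in MSCEPO and 9.63, 9.76 and 9.77 in DPSC. MSCEPO replicate 3 was the lowest of the 15 libraries, NT replicate 2 was the highest, and all groups overlapped NT except DPSC, which lay below it. The differences from NT were −0.10 in sham, −0.13 in MSC, −0.54 in MSCEPO (95% confidence interval −1.01 to −0.07, adjusted p = 0.131 by limma) and −0.32 in DPSC, and none passed. Without MSCEPO replicate 3 the difference in MSCEPO was −0.26.

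Within a library *Stat5a* minus *Stat5b* was −2.48 to −2.03 in NT, −2.04 to −1.63 in sham, −2.02 to −0.99 in MSC, −1.66 to −0.98 in MSCEPO and −2.04 to −1.49 in DPSC, a comparison chosen after the values were seen. The NT values lay below those of MSC and MSCEPO and overlapped those of sham and DPSC. Against NT the mean of this difference was 0.78 higher for MSC and 0.97 higher for MSCEPO, each with a two-sided exact permutation p of 0.1, the smallest that 3 against 3 allows, and 0.32 after adjustment over 8 comparisons. It was 0.40 higher for sham and 0.58 higher for DPSC (exact permutation p of 0.3 and 0.2). The pair are close paralogs, and how the authors' quantification divided reads between them is uncertain. By pattern *Stat5a* was nearest to *Hebp1*, *Ehd4* and *Tec* (root mean square differences of 0.09 to 0.10) and *Stat5b* to *Tomm70*, *Zfp526* and *Ufl1* (0.14 to 0.16).

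*Cish*, a feedback inhibitor that competes for the receptor's STAT5 docking sites and whose promoter window is shown above, stayed nearly level. The rlog values were 6.42, 6.32 and 6.40 in NT, 6.35, 6.16 and 6.34 in sham, and 6.65, 6.36 and 6.23 in MSC. They were 6.41, 6.22 and 6.50 in MSCEPO and 6.27, 6.28 and 6.23 in DPSC. The groups overlapped, apart from DPSC below NT, and the span of 0.49 was larger than that of 19.3% of the tested genes. The order of the means was MSC (6.42 ± 0.22, SD, n = 3), NT (6.38 ± 0.05), MSCEPO (6.38 ± 0.14), sham (6.28 ± 0.11) and DPSC (6.26 ± 0.03), and no neighbours differed beyond their spread. Against NT the difference was 0.03 in MSC (95% confidence interval −0.23 to 0.29, adjusted p = 0.888 by limma) and −0.01 in MSCEPO (−0.27 to 0.25, adjusted p = 0.975). The sign of the difference in MSC turned under median centring, quantile normalization and array weights. Against MSC the difference in MSCEPO was −0.04 (−0.30 to 0.22, adjusted p = 0.913).

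*Socs2* is a feedback inhibitor of STAT5-activating cytokine and growth hormone receptors. It was above NT in every treated group, by 0.26 in sham and 0.32 in DPSC, and passed against NT in MSC and MSCEPO only. The rlog values were 6.65, 6.62 and 6.59 in NT, 6.81, 6.88 and 6.96 in sham, and 7.56, 7.17 and 7.12 in MSC. They were 7.19, 7.16 and 7.09 in MSCEPO and 6.98, 7.15 and 6.69 in DPSC. All 12 libraries from treated eyes lay above NT, all MSC and MSCEPO libraries lay above all sham libraries, and MSC and MSCEPO overlapped. The means rose from NT (6.62 ± 0.03, SD, n = 3) over sham (6.88 ± 0.08), DPSC (6.94 ± 0.23) and MSCEPO (7.15 ± 0.05) to MSC (7.28 ± 0.24), and the neighbours above NT overlapped one another.

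*Socs2* rose by 0.66 ± 0.14 (standard error) in MSC against NT (1.58-fold, adjusted p = 0.00676 by limma) and by 0.53 ± 0.14 in MSCEPO against NT (1.44-fold, adjusted p = 0.0259). The rise in MSC passed also without each library in turn. The call in MSCEPO was lost without any 1 of the NT replicates or without MSCEPO replicate 1 or 2 (adjusted p 0.0616 to 0.0893). The differences from sham were 0.40 in MSC (95% confidence interval 0.10 to 0.69, adjusted p = 0.21) and 0.27 in MSCEPO (−0.03 to 0.56, adjusted p = 0.636). MSCEPO was 0.13 below MSC (−0.43 to 0.16, adjusted p = 0.772).

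**Figure D2:**
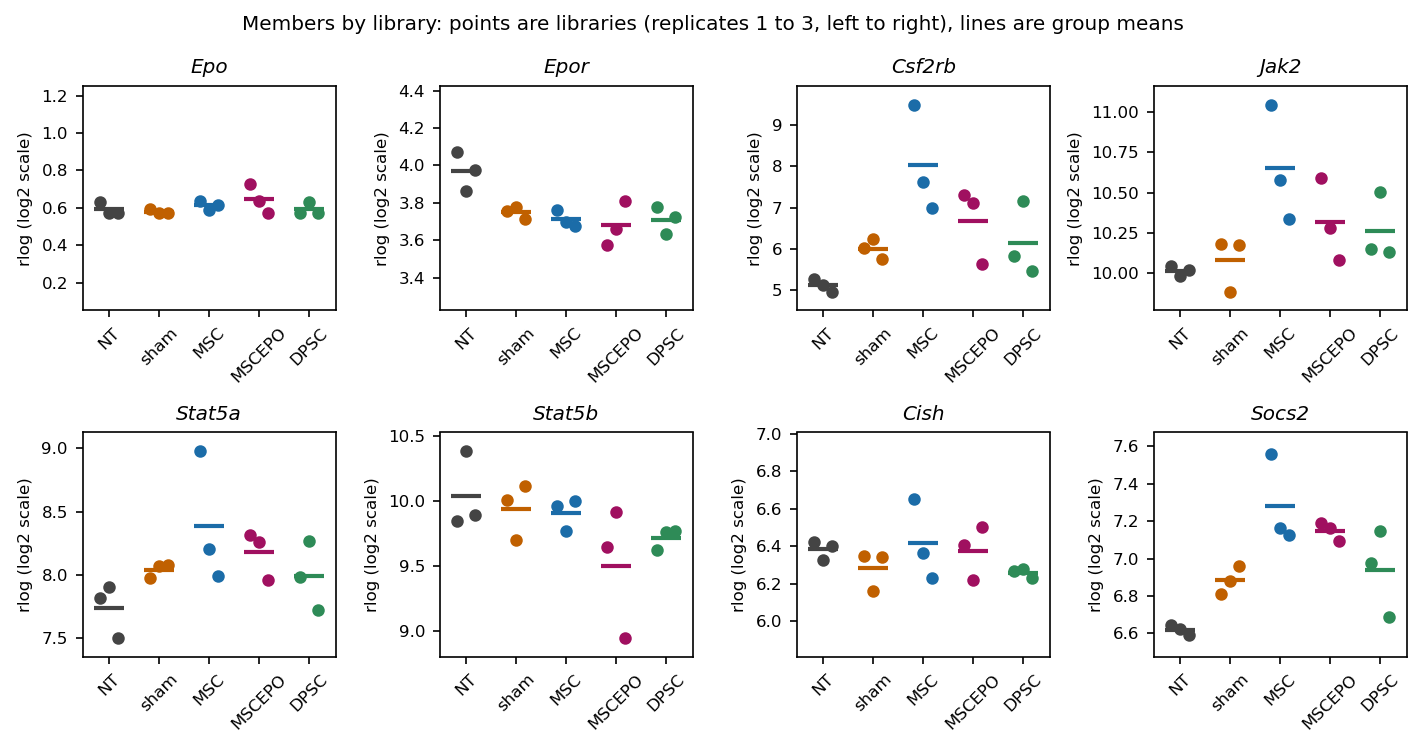
The 8 panels show the rlog value (log2 scale) of each gene in the 15 libraries, by group on the x axis, with a point for each library and a line at each group mean; the y axes differ between panels and do not start at 0. *Epo* lies at 0.57 to 0.73, and *Epor* is below NT in all treated groups. *Csf2rb*, *Jak2*, *Stat5a*, *Cish* and *Socs2* have their highest library in MSC replicate 1. The median rlog over all tested genes was also highest in that library, at 8.82.

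The next question was how the axis as a whole differed between groups. Against NT, 4 of the 7 tested genes passed in MSC (*Csf2rb*, *Jak2* and *Socs2* higher, *Epor* lower), where 17.4% of all tested genes passed. In MSCEPO 2 of 7 passed (*Socs2* higher, *Epor* lower), where 11.6% of all genes passed. In sham 0 of 7 passed (0.888% of all genes; 1 of 7 and 12.4% of all genes at an unadjusted p under 0.05), and in DPSC 0 of 7 (2.85% of all genes; 2 of 7 and 16.8% of all genes unadjusted). The median difference of the 7 genes was 0.07 in sham, 0.64 in MSC, 0.30 in MSCEPO and 0.25 in DPSC, beside medians between −0.01 and 0.01 over all tested genes. Without MSC replicate 1 the count in MSC was 2, *Csf2rb* and *Socs2*, and without MSCEPO replicate 3 the count in MSCEPO was 3, with *Csf2rb* added. In these fits 11.3% and 19.4% of all genes passed. With both libraries left out the counts were 4 in MSC, 5 in MSCEPO (*Csf2rb*, *Epor*, *Jak2*, *Socs2* and *Stat5a*) and 1 in DPSC (*Epor*). The shares of all genes that passed rose as well, to 22.3%, 27.5% and 12%.

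The groups did not overlap in 5 of 7 genes for MSC against NT (44.1% of all tested genes), in 5 for MSCEPO (31.4%), in 4 for sham (31.9%) and in 6 for DPSC (31.7%). Such separation was thus frequent over the whole transcriptome.

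The comparisons of cells with vehicle and of MSCEPO with MSC passed in 0 of the 7 genes. The authors reported over- and underexpressed genes in MSC and in MSCEPO against sham by DESeq2, which was not the test used here. In MSC against sham 0% of all tested genes passed by limma, and 3 of the 7 (*Csf2rb*, *Jak2* and *Socs2*) had an unadjusted p under 0.05, as did 2052 of all tested genes (13.3%). These 3 genes also separated the groups without overlap (24.5% of all genes). In MSCEPO against sham 0.0259% of all genes passed and 0 of the 7 had an unadjusted p under 0.05 (8.31% of all genes). *Socs2* was the one gene of the 7 that separated these groups (14.3% of all genes). In DPSC against sham 0.0195% of all genes passed, 0 of the 7 had an unadjusted p under 0.05 (2.37% of all genes), and 0 separated the groups (9.82% of all genes). MSCEPO differs from MSC by the added *EPO* gene, but also by the lentivirus, GFP and the sorting of the cells. The authors describe no control cells with an empty vector, so these cannot be told apart. In MSCEPO against MSC 0% of all genes passed, and 1 of the 7 had an unadjusted p under 0.05 (*Csf2rb*, lower in MSCEPO, beside 3.79% of all genes). In this comparison 0 separated the groups (4.09% of all genes). Between libraries of the same replicate number, MSCEPO minus MSC was −2.18, −0.49 and −1.37 for *Csf2rb*, −0.46, −0.30 and −0.26 for *Jak2*, and −0.37, −0.00077 and −0.031 for *Socs2*. These 3 genes are named because their differences had 1 sign in all 3 pairs, though *Socs2* was near 0 in pairs 2 and 3. *Epor*, *Stat5a*, *Stat5b* and *Cish* had both signs. The share of all genes with 1 sign is not given, and no label states the pairing. In the fit of the 2 groups with the replicate number as a block none of the 7 genes passed (adjusted p of 0.894 for *Csf2rb* and 0.981 for *Jak2* and *Socs2* by limma). The intervals of the 7 differences between MSCEPO and MSC reached from −0.20 to 0.14 for *Epor* and from −0.43 to 0.16 for *Socs2*, and differences within them are not excluded.

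**Figure D3:**
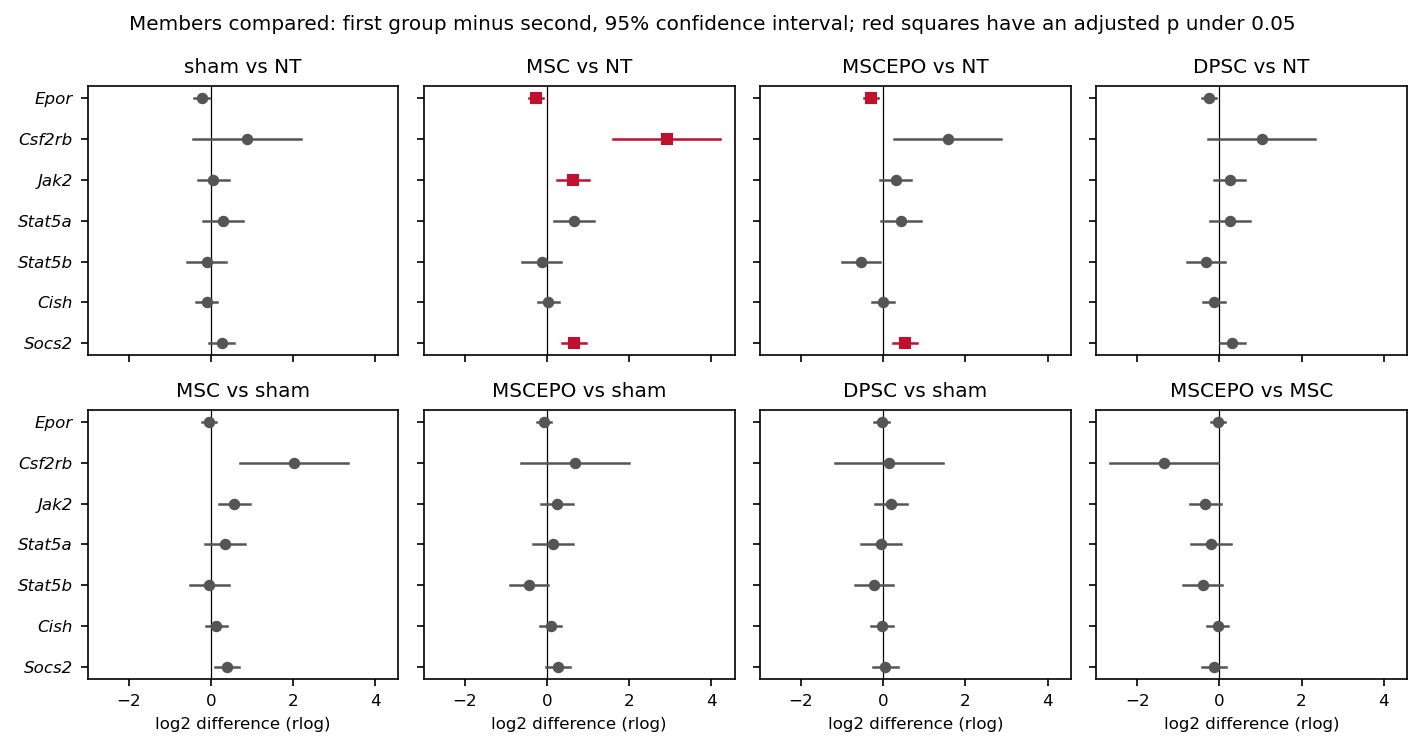
Each panel is 1 of the 8 comparisons, and each row 1 of the 7 tested genes, with the log2 difference of rlog (first group minus second) on the x axis and its 95% confidence interval as a line. Red squares passed the test at an adjusted p under 0.05, and they stand in MSC against NT (4 genes) and MSCEPO against NT (2 genes).

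Other receptors that signal through STAT5 were higher in MSC, and the genes that passed are mostly receptors of lymphocytes and myeloid cells. Of 9 tested genes of the list, 6 passed as higher in MSC against NT and 1 in MSCEPO against NT, with medians of 1.07 and 0.74, and 0 passed in sham or DPSC. The shares of all tested genes, in either direction, were 17.4% in MSC, 11.6% in MSCEPO, 0.888% in sham and 2.85% in DPSC. *Il2rg*, the gamma chain shared by the interleukin-2 family, rose by 3.34 in MSC (adjusted p = 0.00466 by limma). *Il2ra* (1.85), *Il2rb* (1.80), *Il7r* (1.70) and *Csf2ra* (1.07), the GM-CSF receptor alpha chain that pairs with CSF2RB, rose with it. *Csf3r*, the G-CSF receptor, rose in both MSC (1.05, adjusted p = 0.00279) and MSCEPO (0.84, adjusted p = 0.0103). In sham it was 0.59 above NT (adjusted p = 0.168) and in DPSC 0.48 (adjusted p = 0.186). The leukocyte list moved in MSC and MSCEPO too, at 1.74 to 3.95 in MSC, and its part in these rises was not tested. *Ghr*, the growth hormone receptor, was 0.16 above NT in MSC (adjusted p = 0.591).

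Among the adaptors and effectors of EPOR, 5 of 20 tested genes passed as higher and 1 as lower in MSC against NT, and 5 and 2 in MSCEPO against NT. Of all tested genes 17.4% and 11.6% passed in these comparisons, in either direction. *Lyn*, a Src-family kinase of blood cells that acts beside JAK2, rose by 2.03 in MSC (adjusted p = 0.0045 by limma) and 1.55 in MSCEPO (adjusted p = 0.0204). *Vav1*, an exchange factor of blood cells, rose by 2.17 (adjusted p = 0.00422) and 1.36 (adjusted p = 0.0476). *Shc1*, an adaptor to the Ras pathway, rose by 0.88 and 0.76. *Gab1* rose in MSC by 0.73, and *Plcg1* by 0.51 in MSC, 0.41 in MSCEPO and 0.52 in DPSC. In MSCEPO *Sos1* fell by 0.45 and *Mapk3* rose by 0.44. The list median was 0.08 in MSC and −0.02 in MSCEPO, so the list had no common direction. *Grb2*, *Gab2*, *Irs2*, *Pik3r1*, *Pik3ca*, *Pik3cb*, *Akt1*, *Crkl*, *Cbl*, *Rapgef1* and *Hras* passed in none of the 8 comparisons.

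Other kinases and STATs of the family were higher already in sham. *Jak3*, a kinase that pairs with the interleukin-2 gamma chain, rose by 1.49 in sham (adjusted p = 0.00295 by limma), 2.03 in MSC, 1.98 in MSCEPO and 1.69 in DPSC. *Stat3*, the STAT of the interleukin-6 family, rose by 0.94, 1.19, 1.01 and 0.87 in the same groups, with adjusted p-values of 0.00606 or less. *Stat2* (0.74) and *Stat6* (0.87) rose in MSC. In all, 5 of 7 tested genes of the list passed in MSC and 3 in MSCEPO, each as higher, and 2 in sham and 2 in DPSC. Over all tested genes the shares were 17.4%, 11.6%, 0.888% and 2.85% in the same order. *Jak1* and *Tyk2* passed in none of the 8 comparisons.

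The phosphatases and adaptor brakes of the axis had 6 of 13 tested genes higher and 1 lower in MSC, and 4 higher and 1 lower in MSCEPO. Against NT 17.4% and 11.6% of all tested genes passed in these groups, in either direction. *Socs3*, an inhibitor that STAT3 induces, rose by 1.72 in sham (adjusted p = 0.0149 by limma), 2.39 in MSC, 2.35 in MSCEPO and 1.91 in DPSC. *Ptpn6*, the phosphatase SHP-1 that ends EPOR signaling in blood cells, rose by 2.46 in MSC and 1.76 in MSCEPO. *Ptprc*, the leukocyte phosphatase CD45, rose by 4.06 and 2.55, and *Inpp5d*, the inositol phosphatase SHIP-1, by 2.20 and 1.52. *Ptpn1* (0.79) and *Sh2b3* (0.54), an adaptor known as LNK, rose in MSC. *Pias3* fell by 0.32 in MSC and by 0.54 in MSCEPO. *Ptpn6*, *Inpp5d* and *Ptprc* are genes of leukocytes, and *Ptprc* is also a member of the leukocyte list. *Ptpn2*, *Ptpn11*, *Sh2b1*, *Sh2b2*, *Socs1* and *Pias1* passed in none of the 8 comparisons.

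Other STAT5 target genes did not move together. *Tfrc*, the transferrin receptor, fell by 1.08 in sham (adjusted p = 0.00295 by limma), by 1.23 in MSC, by 1.40 in MSCEPO and by 1.09 in DPSC. *Ccnd1* rose by 2.03 in MSC, 2.01 in MSCEPO and 1.53 in DPSC, *Myc* by 1.38 and 1.01 in MSC and MSCEPO, and *Ccnd2* by 1.503 and 1.16. In sham *Ccnd1* was already 1.27 above NT (adjusted p = 0.146), *Ccnd2* 1.18 (0.114) and *Myc* 0.42 (0.444), none of which passed. *Ccnd2* in DPSC was 1.18 above NT (adjusted p = 0.0656). *Bcl6*, which STAT5 is known to repress, rose by 0.46 in MSC (adjusted p = 0.0078). *Bcl2l1*, which encodes the survival protein BCL-xL, was 0.16 above NT in MSC (adjusted p = 0.295) and 0.20 in MSCEPO (adjusted p = 0.21), and *Pim1* was 0.73 above NT in MSC (adjusted p = 0.0692). Over the 11 tested genes 4 passed as higher and 1 as lower in MSC, and 3 and 1 in MSCEPO. Beside them 17.4% and 11.6% of all tested genes passed in either direction. *Pim2*, *Pim3*, *Igf1* and *Id1* passed in none of the 8 comparisons, and *Osm* was under the filter.

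The genes that control *Epo* by oxygen had calls in both directions and small differences. Of 12 tested genes, 2 passed as higher and 1 as lower in MSC, and 1 and 1 in MSCEPO, beside 17.4% and 11.6% of all tested genes in either direction. *Egln3*, a prolyl hydroxylase that HIF itself induces, rose by 0.61 in MSC (adjusted p = 0.00786 by limma) and 0.67 in MSCEPO (adjusted p = 0.00602), and *Adm* rose by 0.79 in MSC. *Hnf4a*, which acts at the *Epo* enhancer, fell by 0.67 in MSC, and *Egln1* fell by 0.33 in MSCEPO. *Hif1a* was 0.09 below NT in MSC and 0.43 below in MSCEPO (adjusted p = 0.742 and 0.109). *Vegfa* was 0.32 below NT in MSC (adjusted p = 0.0905). *Epas1*, *Arnt*, *Vhl*, *Egln2*, *Hif1an* and *Gata2* passed in none of the 8 comparisons. Over these 6 lists, 0 genes passed in MSC against sham, MSCEPO against sham, DPSC against sham or MSCEPO against MSC.

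**Figure D4:**
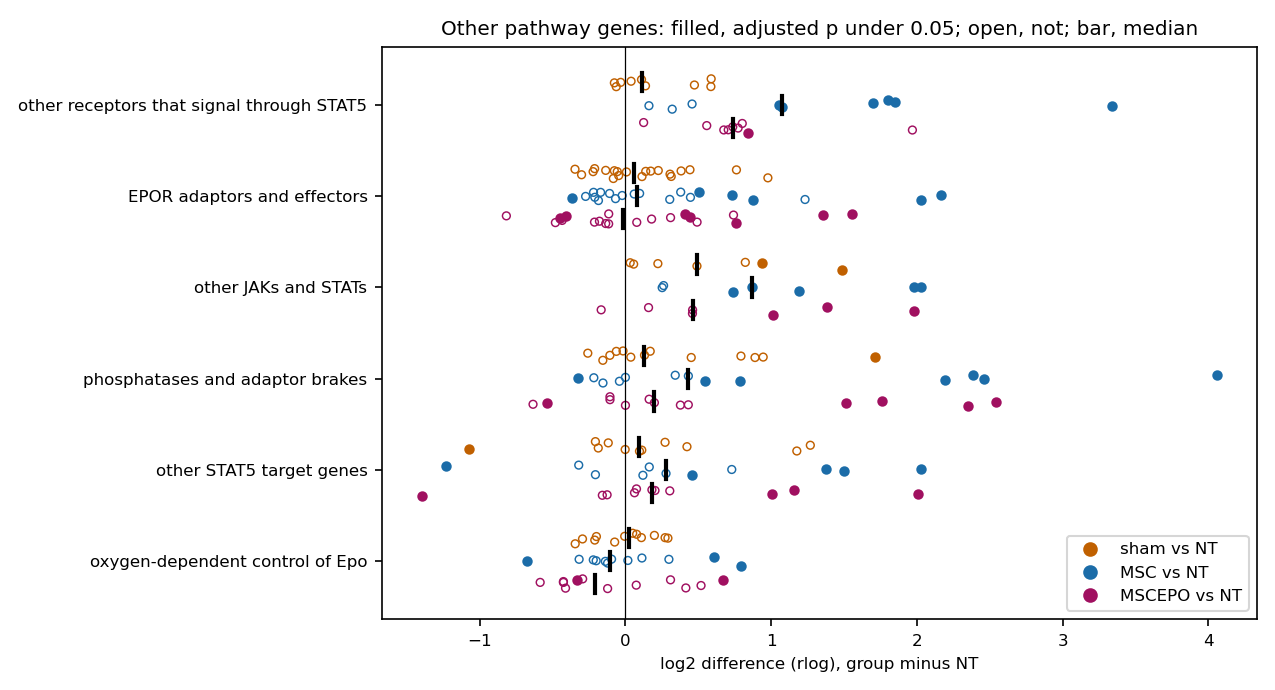
Each point is a tested gene of 1 of 6 pathway lists, at its log2 difference (rlog) from NT on the x axis, in rows for sham, MSC and MSCEPO; filled points passed the test and a bar marks the list median. The filled MSC points reach from *Tfrc* at −1.23 to *Ptprc* at 4.06, and the medians of the EPOR adaptors stay near 0.

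Erythroid genes, whose precursors are the classical target of erythropoietin, were checked beside these lists. Of 15 listed symbols 6 passed the filter, and 0 of the 6 passed the test in any of the 8 comparisons. *Hba1*, a hemoglobin alpha gene, was 1.29 above NT in MSCEPO (adjusted p = 0.248 by limma) and 1.47 in DPSC (adjusted p = 0.3). It was 0.76 above NT in sham (adjusted p = 0.763) and 0.23 in MSC (adjusted p = 0.862). *Gata1*, *Slc4a1*, *Ahsp* and *Alas2* were under the filter. The mean level of the tested genes against NT was −0.38 to 0.45 in NT, 0.11 to 0.59 in sham and −0.15 to 0.63 in MSC. It was 0.35 to 1.08 in MSCEPO and 0.32 to 1.80 in DPSC, so MSCEPO overlapped NT, sham and MSC. Blood left in the vessels was not measured apart from the tissue.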

How the data were processed

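Whole retinas were profiled by RNA-Seq, 3 libraries in each of the NT, sham, MSC, MSCEPO and DPSC groups, as the sample labels assign them. The authors quantified reads with Salmon (1.1.0) against Rnor_6.0, summed them to genes with tximport and applied the DESeq2 rlog transformation. The deposited values are these log2 (rlog) values. Counts were not used here. Single libraries' depths are therefore unknown, and no interval for depth is given. The table of the whole series held 15 further columns of per-sample values, which repeat the same values (0 differed) and were not used.

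One limma (3.58.1, R 4.3.3) fit of group means over the 15 libraries, with a variance trend, tested 15424 genes with a mean rlog of at least 3.32 (log2 of 10) in 8 comparisons, with Benjamini-Hochberg adjustment. List levels are mean rlog values minus the NT mean. The 8 genes always appear. The genes named from each of 6 pathway lists are those with the lowest adjusted p, at most 4 a list, and all genes of lists with calls in both directions. For members with a span over 1 the 3 nearest genes are named, and for marker lists up to 3 defining genes. *Ghr*, *Jak1*, *Tyk2*, *Hba1*, *Stat6*, *Csf2ra* and *Il7r* were named beside them after their values were seen. Genes, lists and tests were chosen with earlier results of these data known. The fit was tested on simulated data. Some genes of these lists are not reported here.

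Libraries of MSC and MSCEPO with the same replicate number had weakly correlated deviations from the group means (0.159 to 0.279). By these deviations 6 of 6 libraries lay closest to their own number. No label states that these libraries were paired, and a pairing is not assumed. RefSeq promoter windows (GRCr8) were searched for 2 motifs. Alternatives were the fold rule, filters, libraries in the fit, a replicate block, scalings, weights, the variance model and each library left out.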

Additional observations from a re-analysis of the deposited data

How the results depend on the processing

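The rise of *Csf2rb* and of *Socs2* in MSC against NT passed in each of the 16 alternative fits (adjusted p up to 0.0309 and 0.038), while counts of members elsewhere depended on the setting. With a log2 difference over 1 also required, 1 gene passed in MSC and 0 in MSCEPO against NT (6.7% and 3.57% of all genes). A fit of the 2 groups compared gave 1 in sham, 2 in MSC and 1 in MSCEPO against NT. There 8.64%, 18.1% and 6.46% of all genes passed. Fits of the 12 libraries without DPSC, with median centring, with quantile normalization and with no variance trend each gave 1 in MSCEPO against NT. In that order 10.2%, 11.8%, 10.5% and 11.6% of all genes passed. Array weights gave 3 in sham, 6 in MSCEPO and 4 in DPSC against NT and 2 in MSCEPO against sham, where 20.6%, 59.7%, 41.3% and 29.7% of all genes passed. The estimation of these weights stopped before its tolerance was reached. Leaving out each library in turn gave 2 to 4 in MSC against NT, 0 to 3 in MSCEPO against NT and 0 to 2 in MSC against sham, and 0 in the other 5 comparisons. The shares of all genes were 8.75% to 17.6%, 5.19% to 19.4% and 0% to 4.53% in the first 3 of these. Leaving out both libraries that stand apart, chosen after seeing the data, gave 5 in MSCEPO and 1 in DPSC against NT. There 27.5% and 12% of all genes passed. The cause of these changes was not tested. Depth could not be read from the values, so no limit of detection is given for *Epo* or *Epor*. The genes called over the whole table also moved, for MSC against sham from 0 to 15 and for MSCEPO against MSC from 0 to 1 in the fit of 12 libraries, and for sham against NT from 137 to 1333 in the fit of the 2 groups.

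With the replicate number as a block, 4 genes passed in MSC against NT, with *Stat5a* gained (adjusted p = 0.0392) and *Epor* lost (0.0536), and the count stayed at 2 in MSCEPO against NT and 0 in the other 6 comparisons. The shares of all genes against NT were 17.7% in MSC and 11.9% in MSCEPO. In MSCEPO against MSC 6 of 6 libraries lay closest to their own number, but no label states a pairing. The blocked fit of those 2 groups, also added after seeing the data, gave 0. In the other 7 comparisons the correlations were −0.441 to 0.433, and 0 to 4 of 6 libraries lay closest to their own number.

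The differences that changed sign had not passed. Under median centring *Cish* was −0.030 in MSC against NT, and in MSCEPO against MSC *Epor* was 0.027 and *Cish* 0.016. Under quantile normalization *Cish* was −0.31 in MSC against NT, −0.063 in MSC against sham and 0.080 in MSCEPO against MSC, where *Epor* was 0.028. Under array weights *Stat5b* was 0.023 in sham and 0.020 in MSC against NT, *Cish* was −0.080 in MSC against NT, −0.0012 in MSC against sham and −0.082 in MSCEPO against sham, *Epor* was 0.015 and *Csf2rb* −0.090 in DPSC against sham, and *Stat5a* was 0.066 in MSCEPO against MSC. Without both libraries that stand apart *Cish* was −0.086 in MSC against NT, and *Stat5a* was 0.19, *Cish* 0.015 and *Socs2* 0.032 in MSCEPO against MSC.

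With single libraries left out, *Cish* ranged from −0.086 to 0.13 in MSC against NT and −0.071 to 0.069 in MSCEPO against NT. *Stat5b* ranged from −0.19 to 0.075 in sham against NT, −0.23 to 0.044 in MSC against NT and −0.15 to 0.056 in MSC against sham. In MSCEPO against MSC the ranges were −0.41 to 0.082 for *Stat5a*, −0.21 to 0.0039 for *Socs2*, −0.094 to 0.023 for *Epor* and −0.13 to 0.078 for *Cish*. In DPSC against sham they were −0.36 to 0.48 for *Csf2rb*, −0.19 to 0.086 for *Stat5a*, −0.050 to 0.18 for *Socs2*, −0.072 to 0.0021 for *Epor* and −0.086 to 0.0073 for *Cish*.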
